A study of Mus musculus with 4 samples.

Results

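Histone genes were followed in cultured dorsal root ganglia, where the bodies of sensory neurons lie with their glia beside the spinal cord, with and without electrical stimulation (ES). The members were the 84 of 23282 rows of the deposited count tables whose gene symbol begins with Hist followed by a cluster number, H2af, H3f3 or H1f. Of these, 68 were replication-dependent (Hist) rows and 16 were variant rows. The class was set by symbol alone, so the Hist rows include a processed pseudogene, Hist3h2bb-ps. Ganglia came from C57BL/6 mouse embryos at embryonic day 13, and all explants were moved to myelination medium at day in vitro (DIV) 8. The first ES group was stimulated for 1 h at 10 DIV (20 Hz, 50 mV/mm) and harvested at 11 DIV, and its control was not stimulated and was harvested at 11 DIV. The second ES group had the same stimulation at 10 DIV and was harvested at 19 DIV, and its control was unstimulated and harvested at 19 DIV. The RNA of 3 explants was pooled for each group, so there were 4 libraries, 1 per group, with no replicates.

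Replication-dependent histone genes supply the H1, H2A, H2B, H3 and H4 proteins that package newly made DNA, and their RNA is made in S phase. Most of these mRNAs carry no poly(A) tail. They end just past a conserved stem-loop that is bound by the stem-loop binding protein. Variant histone genes are used throughout the cell cycle and in cells that no longer divide, as most neurons are, and their mRNAs are spliced or intronless but polyadenylated. A QuantSeq kit, the kind named in the labels, starts cDNA at runs of A and reads tags near the 3′ end, so an mRNA without a tail is read through a minor polyadenylated form or through a run of A inside it. Levels of replication-dependent rows are therefore levels of what such a library can catch.

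The replication-dependent rows stand in clusters, 54 of them at chr13:21715763-23934851, 10 at chr3:96219865-96270132, 3 on chromosome 11 and 1 on chromosome 6. The histone stem-loop consensus was found in a transcript of 46 of the 67 replication-dependent protein-coding genes, and in 46 of the 52 whose annotation runs more than 20 bases past the coding end. It was found in 1 of 15 variant protein-coding genes, H2afx, and in 21 of 21819 other protein-coding genes (0.0962%). The 16-base core is shown for the 3 forms shared by the most members and for H2afx, with the paired stem in capitals and the loop in lower case.
Form in 26 members, among them Hist1h2ap and Hist1h1e: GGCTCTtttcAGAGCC
Form in 7 members, H4 genes: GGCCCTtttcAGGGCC
Form in 6 members, among them Hist1h2bk and Hist1h3c: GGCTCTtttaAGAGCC
H2afx: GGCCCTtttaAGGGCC

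A run of 10 or more A was present in transcripts of 4 of the 67 replication-dependent genes, all 4 among the 26 averaging 10 or more reads over the libraries and none among the 41 below. Such a run was in 2 of 15 variant genes and in 15.8% of the 21819 other protein-coding genes. The 30 bases around each run are shown because they are places inside a transcript where priming on A could start. The run is in capitals, the strand is the gene's, all 6 windows lie in 3′ UTRs, and sequences and positions are from GENCODE M21 transcripts on GRCm38 (mm10).
Hist1h2ao, chr13:21810877-21810906, plus strand: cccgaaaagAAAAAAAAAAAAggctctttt
Hist1h2ap, chr13:21833036-21833065, minus strand: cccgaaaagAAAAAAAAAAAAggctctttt
Hist1h2ac, chr13:23682646-23682675, minus strand: ctaggagAAAAAAAAAAAAAAAgttctatg
Hist1h2be, chr13:23584705-23584734, minus strand: gagacctggAAAAAAAAAAAtcagttccta
H3f3b, chr11:116022944-116022973, minus strand: gtttcctttAAAAAAAAAAAAgtaaacctg
H2afy, chr13:56074149-56074178, minus strand: ggaaagaaagAAAAAAAAAAgagagaaaaa
In Hist1h2ao and Hist1h2ap, the replication-dependent rows with the most reads, the run of 12 A abuts the stem-loop. Whether priming started at any of these runs was not tested.

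Many H2A genes are near copies, which limits how far a read can be given to 1 of them. The last 60 coding bases are shown for 5 forms, with each base that differs from Hist1h2ab in capitals.
Hist1h2ab, chr13:23751466-23751525, plus strand: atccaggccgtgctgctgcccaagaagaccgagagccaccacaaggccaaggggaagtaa
Hist1h2ag, chr13:22042535-22042594, minus strand: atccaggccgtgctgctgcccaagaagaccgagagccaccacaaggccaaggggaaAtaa
Hist1h2ai, chr13:21716755-21716814, plus strand: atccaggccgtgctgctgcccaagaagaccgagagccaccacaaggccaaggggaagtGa
Hist1h2ap, chr13:21833083-21833142, minus strand: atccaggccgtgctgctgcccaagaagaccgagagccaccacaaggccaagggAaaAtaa
Hist2h2aa1, chr3:96245914-96245973, plus strand: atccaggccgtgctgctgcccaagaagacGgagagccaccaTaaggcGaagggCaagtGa
Hist1h2ac, Hist1h2ad and Hist1h2ae have the form of Hist1h2ag, Hist1h2ao has that of Hist1h2ap, and Hist2h2aa2 that of Hist2h2aa1. In 30 of 67 replication-dependent genes at least 50% of the 50-base words in the transcript also stood in another histone row, against 0 of 15 variant genes. The sources used here do not give how reads that fit several genes were counted, so values of single replication-dependent rows are uncertain.

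**Figure D1:**
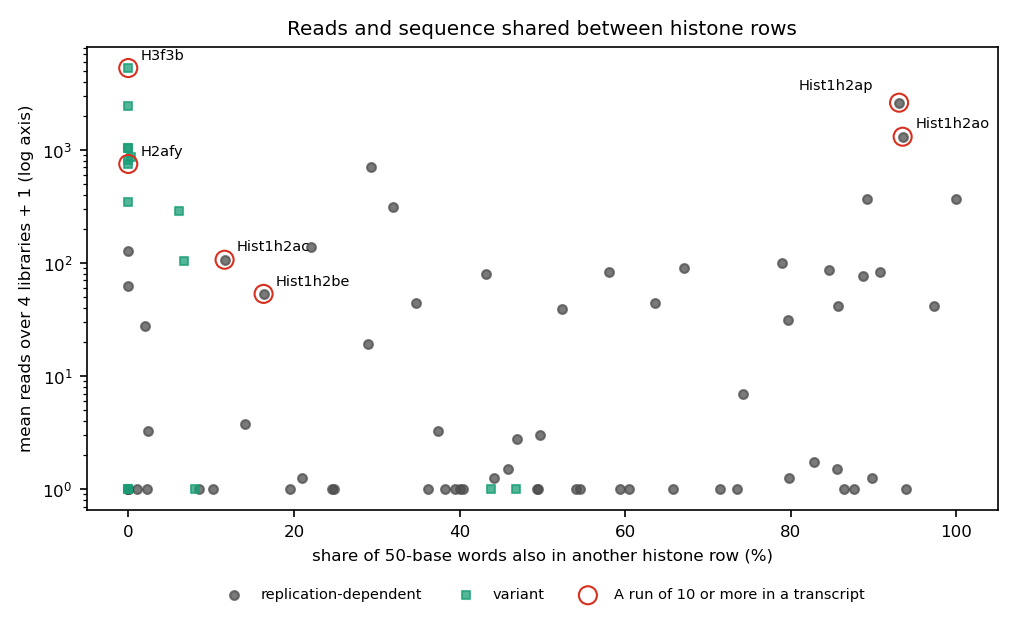
Mean reads over the 4 libraries plus 1 (log axis) against the percentage of a transcript's 50-base words that also stand in another histone row, 1 point per protein-coding histone gene, with circles in grey for replication-dependent and squares in green for variant genes. Red rings mark a run of 10 or more A. Hist1h2ap and Hist1h2ao, at 93.1% and 93.5% shared, have the most reads among the replication-dependent genes, and the well-read variants lie near 0%.

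The libraries held 5782834 to 7830950 reads, and histone rows took 0.345% in ES and 0.293% in control at 11 DIV, and 0.325% in ES and 0.243% in control at 19 DIV. Levels are given as CPM, read counts scaled to a common library total after TMM normalization. At these totals a count of 0 allows up to 3 reads, or 0.376 to 0.518 CPM. Ratios carry an exact 95% counting interval, which covers counting error between those libraries only. Rows of middling abundance scattered between libraries with squared differences 209 to 260 times those of counting error (the spread factor), so a spread-adjusted 95% interval, on counts divided by that factor, is given beside it. The size rule asked for a ratio of at least 2-fold, a counting interval that excludes 1, and 50 or more reads in the library with the higher level. The spread-adjusted rule asked the same with a 99% interval on the divided counts. Most histone rows hold too few reads to pass that rule at any ratio, so a lack of calls says nothing about change. Sensory neuron markers were present (7 of 7 averaged 10 or more reads), as were 6 of 7 Schwann cell and satellite glia markers and 6 of 6 fibroblast markers.

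Reads came from few replication-dependent types. Of the 68 rows, 40 had a read in some library and 26 reached 50 reads in some library, which leaves 14 with fewer reads and 28 with none. H2A rows were read most widely: 18 of 18 had reads and 15 reached 50. Among H2B rows 12 of 19 had reads and 6 reached 50, and among H1 rows 2 of 6 had reads. Few H3 and H4 rows were read, 4 of 12 for H3 and 4 of 13 for H4. Of the 16 variant rows 11 had reads and 10 reached 50. The 5 variant rows without a read were H1fnt and H1foo, linker histones of the male and the female germ line, and H2afb1, H2afb2 and H2afb3, short H2A variants of the testis.

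The replication-dependent rows together were higher in ES than in control on both days. Their summed level was 1324 CPM in ES and 803 CPM in control at 11 DIV, and 1263 CPM in ES and 816 CPM in control at 19 DIV, so both ES libraries lay above both controls. How many of all rows showed that order was not counted, here or for the single rows below. The ratio of the sums was 1.65 at 11 DIV (counting interval 1.59 to 1.71) and 1.55 at 19 DIV (1.498 to 1.60). With the spread between libraries allowed for, the intervals were 0.952 to 2.92 and 0.917 to 2.67, and both include 1. These sums, and the shares below that use them, count rows with identical reads more than once. With such rows counted once the ratios were 1.60 at 11 DIV (spread-adjusted interval 0.911 to 2.88) and 1.43 at 19 DIV (0.837 to 2.50). Both of these intervals also include 1. Over the 38 replication-dependent rows with less than 50% of their 50-base words in another histone row, a choice made after seeing the data, the ratio was 4.41 at 11 DIV (spread-adjusted interval 0.829 to 51.4) and 2.16 at 19 DIV (0.767 to 7.12), and both intervals include 1. Of these 38 rows, 20 had a read. Of their 1673 reads in ES at 11 DIV, Hist1h2bc gave 887 and Hist1h1e 368. At 19 DIV the ES sum holds rows read in that library only, Hist1h1b with 511 reads, Hist1h2be with 209 and Hist2h3c1 with 172. Hist2h2be, with 29 reads in ES against 204 in control at 19 DIV, went the other way. In such bulk RNA, a change in the share of dividing cells and a change in RNA per cell cannot be told apart.

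Variant rows together did not follow that order. Their sum was 2048 CPM in ES and 2334 CPM in control at 11 DIV, and 1929 CPM in ES and 1560 CPM in control at 19 DIV, so the controls held both the highest and the lowest value. The ratio was 0.877 at 11 DIV (spread-adjusted interval 0.605 to 1.27) and 1.24 at 19 DIV (0.834 to 1.85). The order at 11 DIV rested on H3f3b, without which the log2 ratio turned from -0.19 to 0.071. The median log2 difference of the variant rows was above 0 on both days, 0.33 at 11 DIV and 0.54 at 19 DIV. Replication-dependent rows made up 39.3% of histone reads in ES and 25.6% in control at 11 DIV, and 39.6% in ES and 34.3% in control at 19 DIV. The exact 95% binomial intervals of these shares were 38.6% to 40.0% in ES and 25.0% to 26.2% in control at 11 DIV, and 39.0% to 40.2% in ES and 33.6% to 35.1% in control at 19 DIV, for counting error only.

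**Figure D2:**
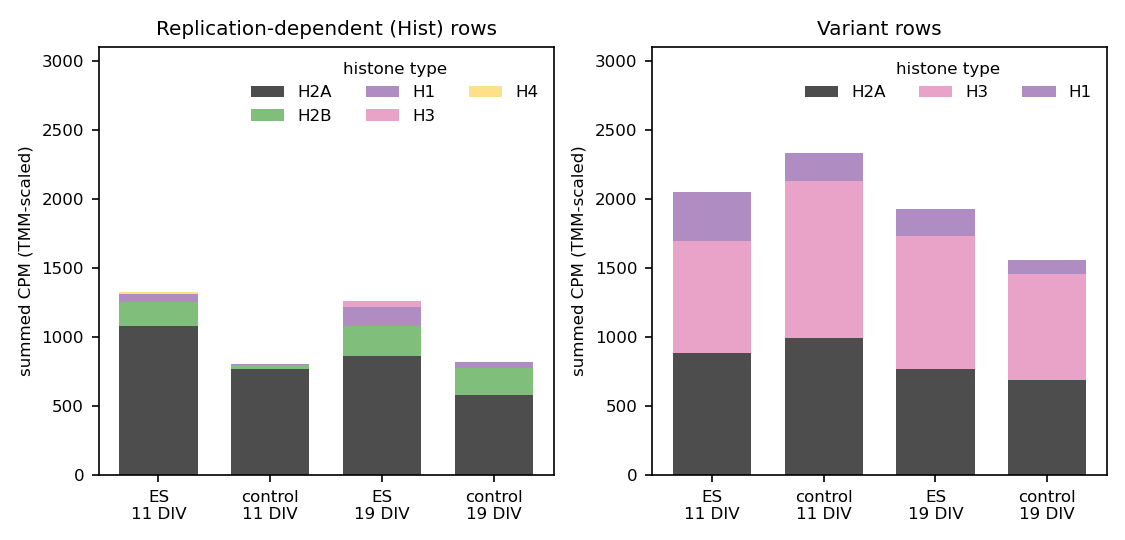
Summed TMM-scaled CPM of the replication-dependent rows (left) and the variant rows (right), 1 bar per library, stacked by histone type. H2A (dark grey) makes up most of every left bar, and the ES bars stand at 1324 and 1263 CPM, above controls at 803 and 816 CPM. The right bars do not separate ES from control. Rows with identical reads are each included in the left bars.

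H2A rows carried 81.3% of replication-dependent reads in ES and 95.4% in control at 11 DIV, and 68.4% in ES and 70.7% in control at 19 DIV. H2A is the core histone that pairs with H2B in the nucleosome. Hist1h2ap had 3116 reads in ES against 2258 in control at 11 DIV, and 2823 in ES and 2259 in control at 19 DIV. Its partner Hist1h2ao had 1541 and 1148 reads in ES and control at 11 DIV, and 1424 and 1114 in ES and control at 19 DIV. For both genes the ES library was the higher on each day, but ES at 19 DIV lay below control at 11 DIV in CPM. The ratios of Hist1h2ap were 1.35 at 11 DIV (spread-adjusted interval 0.577 to 3.27) and 1.08 at 19 DIV (0.423 to 2.83), both below 2-fold.

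Hist1h2ap took nearly the same share of the reads of the pair in each of the 4 libraries: 66.9% in ES and 66.3% in control at 11 DIV, and 66.5% in ES and 67.0% in control at 19 DIV. The genes lie on opposite strands of chromosome 13, with 93.1% and 93.5% of their 50-base words in another histone row. The pair alone made up 59.4% and 73.2% of replication-dependent reads in ES and control at 11 DIV, and 42.1% in ES and 58.7% to 61.3% (exact 95% interval) in control at 19 DIV.

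Without this pair, a split chosen after its counts were seen, the remaining 66 rows summed to 538 CPM in ES and 215 CPM in control at 11 DIV, and 731 CPM in ES and 326 CPM in control at 19 DIV. Both ES libraries lay above both controls. The ratios were 2.51 at 11 DIV (spread-adjusted interval 0.921 to 7.90) and 2.24 at 19 DIV (1.02 to 5.33). These sums count rows with identical reads more than once, among them Hist2h2aa1 and Hist2h2aa2, and Hist2h3c1 and Hist2h3c2. With such rows counted once, a step added after seeing the data, the sums were 453 CPM in ES and 185 CPM in control at 11 DIV, and 620 CPM in ES and 315 CPM in control at 19 DIV. The ratios were then 2.45 (spread-adjusted interval 0.824 to 8.64) and 1.97 (0.868 to 4.84), and both intervals include 1.

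Hist2h2aa1 and Hist2h2aa2, neighbouring H2A copies on chromosome 3, had identical counts and cannot be separated. Each was listed with 508 reads in ES against 172 in control at 11 DIV, and 718 in ES and 79 in control at 19 DIV. Both ES libraries lay above both controls. The ratio was 2.89 at 11 DIV (counting interval 2.42 to 3.45) and 7.85 at 19 DIV (6.21 to 10.0), with spread-adjusted lower ends of 0.169 and 0.294.

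A block of 7 further H2A rows (Hist1h2ab, Hist1h2ac, Hist1h2ad, Hist1h2ae, Hist1h2ag, Hist1h2ah and Hist1h2ai) had like counts, and was picked out after they were seen. Their reads ran from 69 to 126 in ES and from 62 to 109 in control at 11 DIV, and from 118 to 156 in ES and from 46 to 61 in control at 19 DIV. At 19 DIV the ES range lay wholly above the control range, and at 11 DIV the ranges overlapped. Hist1h2ac, with a mean over 100 reads, had 114 in ES and 109 in control at 11 DIV, and 152 in ES and 48 in control at 19 DIV, ratios of 1.02 (counting interval 0.780 to 1.34) and 2.73 (1.96 to 3.86). These rows share words of 50 bases with up to 19 other members, so they are not 7 separate measurements. Each of the 7 also overlaps an annotated gene on the other strand, from which reads could not be told apart where strand is unknown. The same holds for Hist1h2ap, Hist1h2ao, Hist2h2aa1, Hist2h2aa2, Hist1h2af, Hist1h2ak, Hist1h2an and Hist3h2a. Hist3h2a also overlaps Trim17 on the same strand. The other 4 H2A rows that reached 50 reads, Hist1h2af, Hist1h2ak, Hist1h2an and Hist3h2a, ran from 7 to 28 reads in ES and from 19 to 47 in control at 11 DIV, and from 51 to 76 in ES and from 14 to 26 in control at 19 DIV.

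H2B rows held 173 CPM in ES and 34.2 CPM in control at 11 DIV, and 218 CPM in ES and 198 CPM in control at 19 DIV, with control at 11 DIV far below the other libraries. The ratio was 5.05 at 11 DIV (counting interval 4.33 to 5.91) and 1.10 at 19 DIV (1.02 to 1.18). Spread-adjusted intervals were 0.541 to 283 and 0.321 to 3.99. Hist1h2bc, an H2B gene known to make polyadenylated RNA in differentiated tissue, led this sum. It had 887 reads in ES against 132 in control at 11 DIV, and 1117 in ES and 663 in control at 19 DIV. Both ES libraries stood above both controls in CPM. Ratios were 6.57 at 11 DIV (counting interval 5.47 to 7.95) and 1.45 at 19 DIV (1.32 to 1.60), with spread-adjusted lower ends of 0.497 and 0.267.

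Hist3h2ba, an H2B gene beside Hist3h2a on chromosome 11, had 135 reads in ES against 0 in control at 11 DIV, and 348 in ES and 70 in control at 19 DIV. With 0 set at 3 reads it was at least 44.0-fold higher at 11 DIV, which is no lower limit once the spread is allowed for, and 4.29-fold higher at 19 DIV (counting interval 3.31 to 5.63). The spread-adjusted lower ends were 0.00328 and 0.0608.

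Another set of H2B rows was read mainly in control at 19 DIV. Hist1h2br had 0 reads in ES against 20 in control at 11 DIV, and 3 in ES and 282 in control at 19 DIV. Hist1h2bq, with 97.3% of its 50-base words in Hist1h2br, had 0 and 11 reads in ES and control at 11 DIV, and 3 and 147 in ES and control at 19 DIV. Hist1h2br took 64.5% of their joint reads in control at 11 DIV and 65.7% in control at 19 DIV. These near copies are not separate measurements. Hist2h2be, which shares no 50-base word with another member and is known to make polyadenylated RNA in differentiated tissue, had 0 and 11 reads in ES and control at 11 DIV, and 29 and 204 in ES and control at 19 DIV. In all 3 rows, near copies included, the ES library was the lower on both days, against the direction of Hist1h2bc and Hist3h2ba. Their ratios at 19 DIV were 0.00918 for Hist1h2br (counting interval 0.00188 to 0.0271), 0.0176 for Hist1h2bq (0.00359 to 0.0525) and 0.123 for Hist2h2be (0.0802 to 0.182). Spread-adjusted upper ends were 18.3, 327 and 68.8, so none of these excludes 1. The third gene of the list of tissue poly(A) forms, Hist1h1c, a linker histone, had 0 reads in all 4 libraries.

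Linker histone H1 binds the DNA where it enters and leaves the nucleosome. Hist1h1e had 368 reads in ES against 8 in control at 11 DIV, and 581 in ES and 282 in control at 19 DIV. Both ES values exceeded both control values, also in CPM. The ratio was 45.0 at 11 DIV (counting interval 22.6 to 105) and 1.78 at 19 DIV (1.54 to 2.06), with spread-adjusted lower ends of 0.133 and 0.131. Hist1h1b was read in 1 library only, with 511 reads in ES at 19 DIV and 0 in the other 3. With 0 set at 3 reads that is at least 147-fold higher than control at 19 DIV, with a spread-adjusted lower end of 0.192. Its annotated transcript ends at the coding end, and it shares no 50-base word with another member.

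Several core histone rows were read in a single library. The H3 rows Hist2h3c1 and Hist2h3c2 had identical counts, 172 reads in ES at 19 DIV and 0 elsewhere, and the H2B row Hist1h2be had 209 reads in ES at 19 DIV and 0 elsewhere. Hist1h2be overlaps Hist1h1e on the same strand, so reads between them may be shared. The H4 row Hist1h4i had 73 reads in ES at 11 DIV and 0 elsewhere. Each of these counts lies below the spread factor of the comparisons it enters, so a spread-adjusted interval cannot separate any of them from 0.

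**Figure D3:**
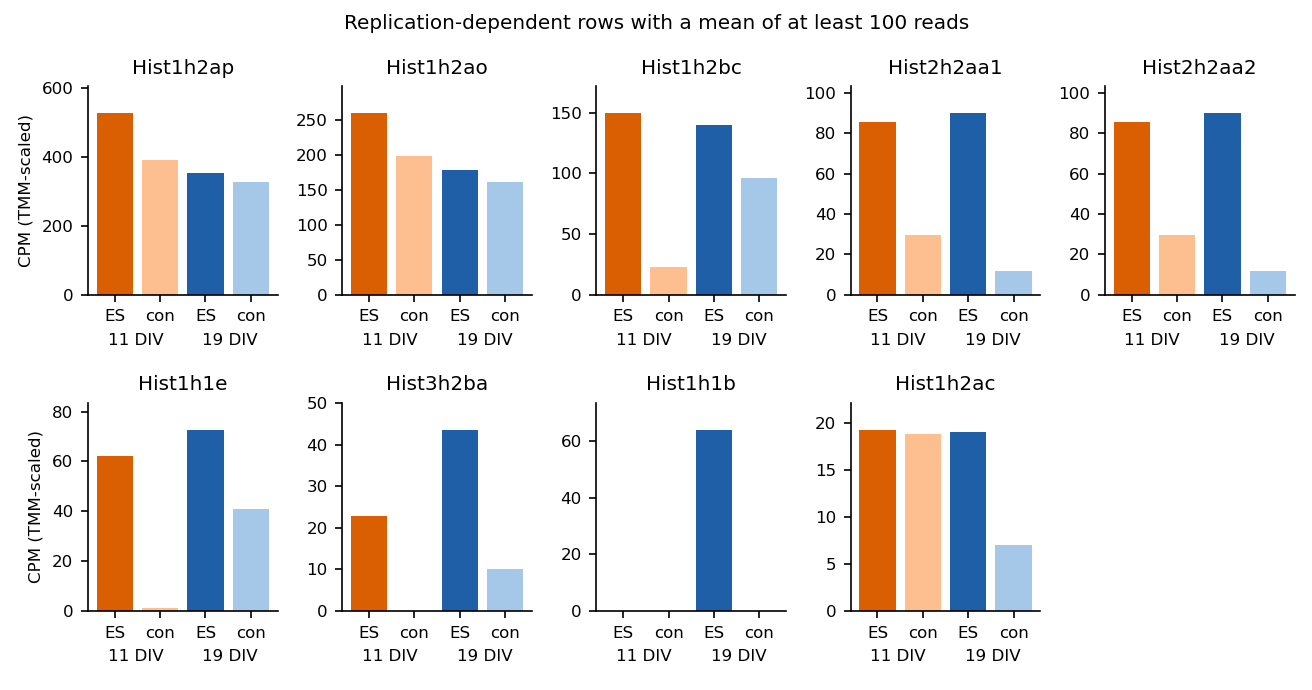
TMM-scaled CPM of the 9 replication-dependent rows averaging 100 or more reads, 1 bar per library (dark for ES, light for control, orange at 11 DIV and blue at 19 DIV), each panel with its own axis from 0. The bars of Hist1h2ap and Hist1h2ao change by less than 2-fold between ES and control. Hist1h2bc, Hist2h2aa1, Hist2h2aa2, Hist1h1e, Hist3h2ba and, narrowly, Hist1h2ac have both ES bars above both control bars. Hist2h2aa1 and Hist2h2aa2 have identical counts.

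Among variants, H3f3a and H3f3b encode the same H3.3 protein, the replacement H3 laid down outside S phase. H3f3b, the histone row with the most reads, had 3997 in ES and 5947 in control at 11 DIV, and 6859 in ES and 4372 in control at 19 DIV. H3f3a had 803 and 646 reads in ES and control at 11 DIV, and 841 and 929 in ES and control at 19 DIV. On each day the pair lay on opposite sides of control. H3f3b was 0.657 of control at 11 DIV (spread-adjusted interval 0.348 to 1.21) and 1.35 times control at 19 DIV (0.731 to 2.57), and H3f3a 1.22 (0.202 to 8.15) and 0.781 (0.132 to 4.40). H3f3b took 83.3% of the reads of the pair in ES and 90.2% in control at 11 DIV, and 89.1% in ES and 82.5% in control at 19 DIV. An antisense gene, H3f3aos, overlaps H3f3a.

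H2afz and H2afv encode both forms of H2A.Z, a variant placed around transcription start sites. H2afz had 2260 reads in ES against 3107 in control at 11 DIV, and 2030 in ES and 2301 in control at 19 DIV. H2afv had 917 and 688 reads in ES and control at 11 DIV, and 1634 and 905 in ES and control at 19 DIV. On both days H2afz was lower and H2afv higher in ES. The ratios of H2afz were 0.711 (spread-adjusted interval 0.294 to 1.67) at 11 DIV and 0.761 (0.268 to 2.13) at 19 DIV, and those of H2afv 1.30 (0.243 to 7.95) and 1.56 (0.388 to 7.52). H2afz took 71.1% of their joint reads in ES and 81.9% in control at 11 DIV, and 55.4% in ES and 71.8% in control at 19 DIV. Their summed ratio was 0.819 (0.386 to 1.71) at 11 DIV and 0.987 (0.445 to 2.21) at 19 DIV.

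H2afy encodes macroH2A1, which carries a large extra domain and is found on silent chromatin, and H2afy2 encodes its relative macroH2A2. H2afy had 485 reads in ES against 915 in control at 11 DIV, and 1070 in ES and 530 in control at 19 DIV, ratios of 0.518 (spread-adjusted interval 0.0588 to 3.19) and 1.74 (0.284 to 15.9). H2afy2 had 5 and 36 reads in ES and control at 11 DIV, and 326 and 43 in ES and control at 19 DIV. ES was lower at 11 DIV and higher at 19 DIV in both rows. At 19 DIV the ratio of H2afy2 was 6.54 (counting interval 4.75 to 9.22), with a spread-adjusted lower end of 0.0549. H2afy3, annotated as a processed pseudogene, had 12 reads in control at 19 DIV and 0 in the other libraries.

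H2afx encodes H2A.X, whose tail is phosphorylated at DNA breaks, and its RNA can end at the stem-loop or at a poly(A) site. It had 500 reads in ES against 374 in control at 11 DIV, and 46 in ES and 234 in control at 19 DIV. Both libraries at 19 DIV stood below both at 11 DIV. ES was 1.31 times control at 11 DIV (spread-adjusted interval 0.114 to 19.9) and 0.1697 of control at 19 DIV (counting interval 0.121 to 0.234, spread-adjusted upper end 41.7). H2afj, an H2A variant known to build up in senescent human cells, had 1084 and 624 reads in ES and control at 11 DIV, and 1010 and 718 in ES and control at 19 DIV. Its ratios were 1.70 (0.337 to 10.9) and 1.21 (0.216 to 8.03).

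H1f0 encodes the linker histone H1.0 of resting and differentiated cells. It had 1290 reads in ES against 644 in control at 11 DIV, and 1551 in ES and 707 in control at 19 DIV. Both ES libraries lay above both controls, and the level at 19 DIV was 0.892 times that of 11 DIV in ES and 0.923 times in control. The ratios, 1.96 (spread-adjusted interval 0.429 to 11.7) at 11 DIV and 1.89 (0.421 to 11.5) at 19 DIV, were just below 2-fold. H1fx, a divergent linker histone variant, had 792 and 542 reads in ES and control at 11 DIV, and 35 and 0 in ES and control at 19 DIV. Both libraries at 19 DIV were near 0, far below both at 11 DIV. H1fx overlaps the annotated genes Gm47286 on its own strand and Gm5577 on the other. H1f0, H2afx, H2afj, H2afy and H2afy2 also overlap annotated genes on the other strand. Reads of such genes could not be told apart where strand is unknown.

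**Figure D4:**
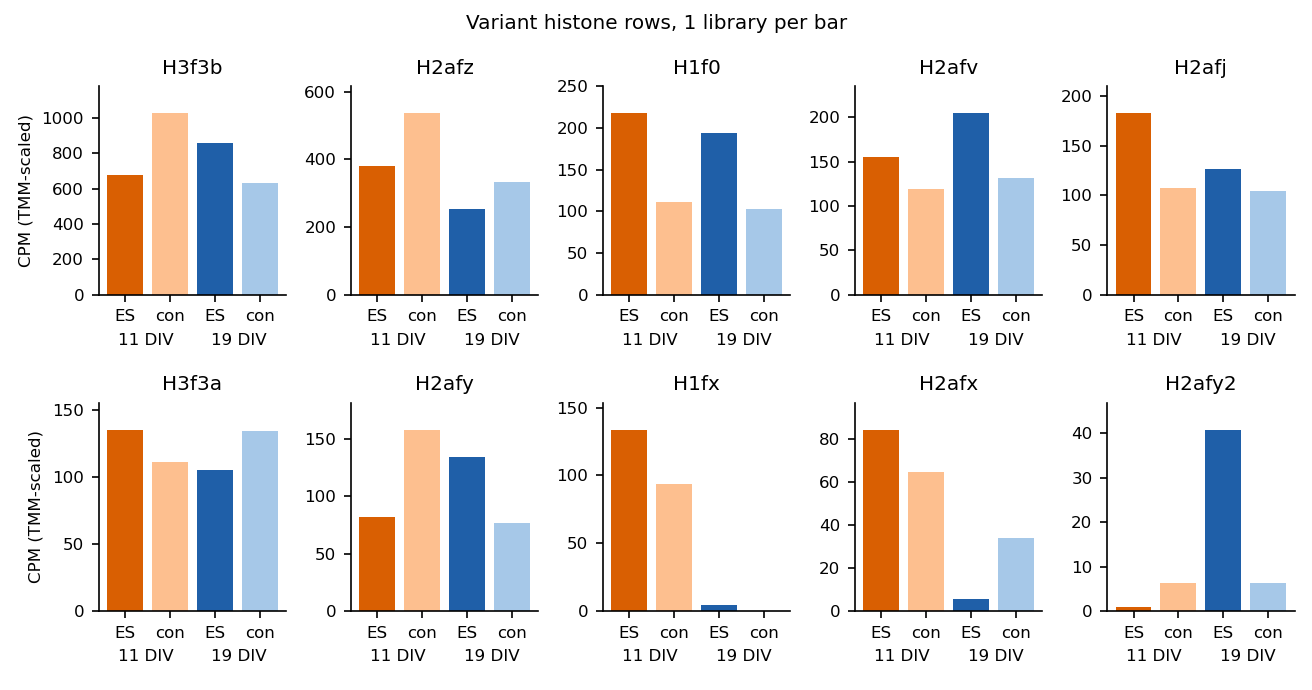
TMM-scaled CPM of the 10 variant rows with at least 50 reads in some library, 1 bar per library (dark for ES, light for control, orange at 11 DIV and blue at 19 DIV), each panel with its own axis from 0. H1f0, H2afv and H2afj have both ES bars above both control bars, and H1fx and H2afx are short at 19 DIV and tall at 11 DIV.

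Against control at 11 DIV, the size rule called 6 members higher and 0 lower in ES among the 24 with at least 50 reads. Over all rows the rule called 28.9% higher and 29.6% lower, 58.6% in either direction, and the members' share of calls lay below that. The 6 were Hist3h2ba, Hist1h4i, Hist1h1e, Hist1h2bc, Hist2h2aa1 and Hist2h2aa2, all replication-dependent. Of 9 variant rows 0 were called. The spread-adjusted rule called 0 of the 24 (0.315% of all rows). Most of the 24 hold too few reads to pass it at any ratio.

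At 19 DIV the size rule called 17 members higher and 4 lower in ES among 34, against 29.4% higher and 31.3% lower over all rows (60.6% in either direction), so the members' share called in either direction was near that of all rows. Of 25 replication-dependent rows 16 were higher and 3 lower, and of the 16 higher ones 11 were H2A rows, which are near copies. Of the 3 lower ones, Hist1h2br and Hist1h2bq are near copies. Variant rows gave 1 higher, H2afy2, and 1 lower, H2afx, among 9. The spread-adjusted rule called 0 of the 34 (0.259% of all rows). Most of the 34 hold too few reads to pass it at any ratio.

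The ES comparisons at 11 and 19 DIV share no library. Of the 36 members averaging 10 or more reads, 18 were higher in ES at both days and 4 lower at both, against 19.8% and 21.7% of the 11665 such rows of the table. Replication-dependent rows gave 14 of 26 higher at both days, near copies included. By the size rule 3 of 22 members were higher at both days, Hist3h2ba, Hist2h2aa1 and Hist2h2aa2, where 8.09% of all rows were, and 0 were lower at both days (8.65% of all rows). Hist2h2aa1 and Hist2h2aa2 are 1 measurement. Median log2 differences (prior count 2) were 0.15 for 26 replication-dependent and 0.33 for 10 variant rows at 11 DIV, and 1.24 and 0.54 at 19 DIV, where the median of all rows was 0. Over the 3 replication-dependent rows averaging 500 or more reads, the median at 19 DIV was 0.14.

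**Figure D5:**
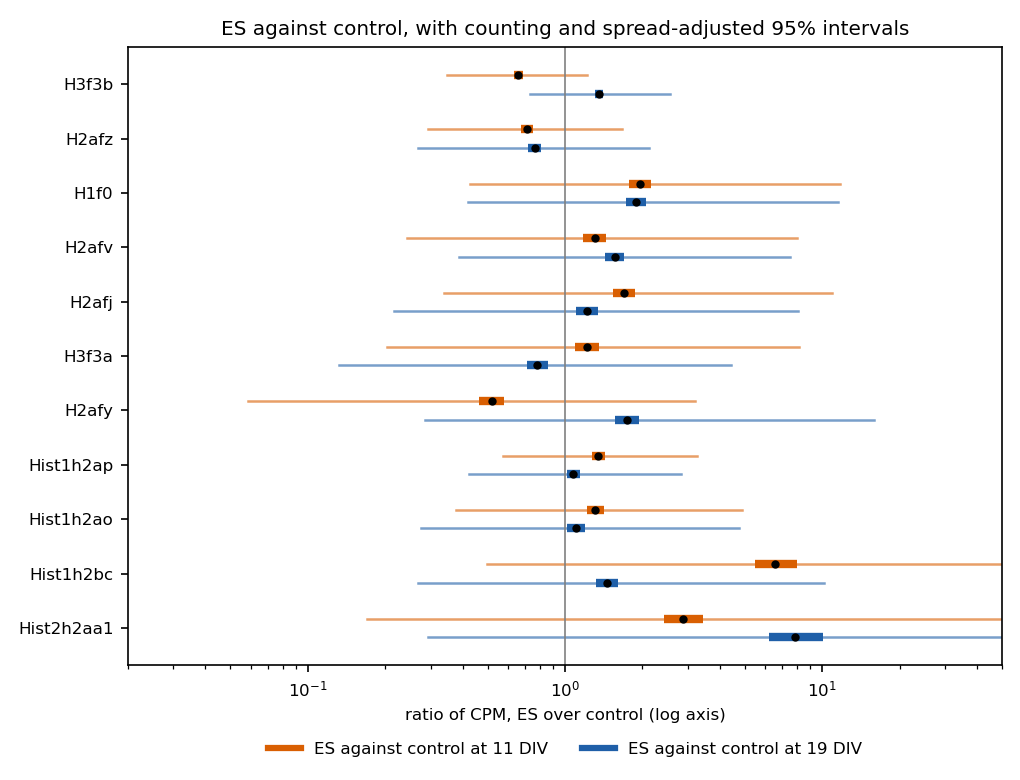
Ratio of CPM, ES over control (log axis), for the histone rows with more than 50 reads in every library, orange at 11 DIV and blue at 19 DIV, Hist2h2aa1 standing also for Hist2h2aa2. Black points are ratios, thick bars 95% counting intervals and thin lines spread-adjusted 95% intervals, some running past the axis. Every thin line crosses 1.

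An additive fit over the 4 libraries, with ES and harvest day as terms and 1 residual degree of freedom, was the only test with any residual. By edgeR's quasi-likelihood test with Benjamini-Hochberg adjustment it called 0 of 10034 rows (0%) for ES and 0 (0%) for day, with 109 and 204 rows at an unadjusted p under 0.05. Of 31 members tested, 0 had an unadjusted p under 0.05 for ES and 1 for day. DESeq2's Wald test in the same design called 508 rows (5.06%) for ES, of which 0 were members (9 at an unadjusted p under 0.05), and 832 (8.29%) for day, of which 1 was a member. limma with voom called 0 rows (0%) for either term.

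The member called for day was H1fx, lower at 19 DIV in both treatments. Its log2 change from DESeq2 was -7.28, with an adjusted p of 2.49e-05, and from edgeR -7.31, with an unadjusted p of 0.0224 and an adjusted p of 1. By limma with voom its adjusted p was 0.179. The counts behind it were 35 and 792 reads in ES at 19 and 11 DIV, and 0 and 542 in control at 19 and 11 DIV.

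Comparisons of harvest days reuse the libraries above. In control, 19 against 11 DIV, the size rule called 6 members higher and 6 lower among 26 (30.9% and 29.8% of all rows, 60.8% in either direction). The higher ones were 5 H2B rows, Hist1h2bc, Hist3h2ba, Hist1h2br, Hist1h2bq and Hist2h2be, with Hist1h1e, and the lower ones were 4 H2A rows, H2afy and H1fx. Near copies are included, such as Hist1h2br and Hist1h2bq. In ES, 19 against 11 DIV, the rule called 7 higher and 3 lower among 33 (30.9% and 30.5% of all rows, 61.4% in either direction). The higher ones were Hist1h1b, Hist1h2be, Hist2h3c1, Hist2h3c2, Hist1h2ak, Hist3h2a and H2afy2, and the lower ones Hist1h4i, H1fx and H2afx. The spread-adjusted rule called 0 members in either (0.608% of all rows in control, 0.415% in ES). The summed replication-dependent level was 1.02 times that of 11 DIV in control (spread-adjusted interval 0.539 to 1.94) and 0.953 times in ES (0.577 to 1.59). The summed variant level was 0.668 times that of 11 DIV in control (0.444 to 1.00) and 0.942 times in ES (0.631 to 1.41).

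Genes that process histone mRNA ends had a lower sum in ES at 11 DIV. The 14 genes of that list, of which Clp1 and Zfp473 had no read, summed to 403 CPM in ES and 875 CPM in control at 11 DIV, and 568 CPM in ES and 767 CPM in control at 19 DIV. The ratio of the sums was 0.461 at 11 DIV (spread-adjusted interval 0.207 to 0.966) and 0.741 at 19 DIV (0.381 to 1.43). By the size rule 1 was higher and 6 lower of 11 at 11 DIV, and 3 higher and 5 lower of 12 at 19 DIV, and the spread-adjusted rule called 0 at either day. Called in either direction were thus 7 of 11 and 8 of 12, near the 58.6% and 60.6% of all rows. Eri1, an exonuclease that trims the stem-loop end, had 387 reads in ES against 1533 in control at 11 DIV, and 833 in ES and 641 in control at 19 DIV. Cpsf2, a subunit of the cleavage complex, had 335 and 832 reads in ES and control at 11 DIV, and 114 and 1204 in ES and control at 19 DIV. Srrt, a partner of the cap-binding complex, had 265 and 663 reads in ES and control at 11 DIV, and 857 and 1088 in ES and control at 19 DIV. Slbp, the stem-loop binding protein, named here after its values were seen, had 9 and 105 reads in ES and control at 11 DIV, and 23 and 484 in ES and control at 19 DIV. It passed the size rule as lower in ES on both days, with spread-adjusted upper ends of 1570 and 4.70. Others of the list, also named after their values were seen, went the other way. Ncbp1 was higher in ES on both days. It had 560 and 180 reads in ES and control at 11 DIV, and 826 and 113 in ES and control at 19 DIV. At 19 DIV Cpsf3, with 732 and 26 reads in ES and control, and Lsm11, with 362 and 0, were higher in ES.

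S phase and replication genes gave mixed counts. The 25 genes summed to 1738 CPM in ES and 1348 CPM in control at 11 DIV, and 1264 CPM in ES and 1114 CPM in control at 19 DIV, ratios of 1.29 (spread-adjusted interval 0.826 to 2.03) and 1.13 (0.702 to 1.85). By the size rule 7 were higher and 5 lower of 24 at 11 DIV, and 8 higher and 5 lower of 22 at 19 DIV. The share called in either direction lay below the 58.6% of all rows at 11 DIV and near their 60.6% at 19 DIV. Top2a, the topoisomerase that untangles chromosomes, had 1765 and 1364 reads in ES and control at 11 DIV, and 2101 and 2591 in ES and control at 19 DIV. Mcm7, part of the replicative helicase, had 1412 and 711 reads in ES and control at 11 DIV, and 874 and 270 in ES and control at 19 DIV. Pcna, the sliding clamp of DNA polymerases, had 759 and 281 reads in ES and control at 11 DIV, and 551 and 621 in ES and control at 19 DIV. Mcm7 was higher in ES on both days and Pcna at 11 DIV only.

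Histone chaperones and deposition factors, 21 genes, summed to 2577 CPM in ES and 3440 CPM in control at 11 DIV, and 2463 CPM in ES and 2558 CPM in control at 19 DIV. The ratios were 0.749 (spread-adjusted interval 0.545 to 1.03) and 0.963 (0.696 to 1.33). By the size rule 2 were higher and 7 lower of 20 at 11 DIV, and 6 higher and 3 lower of 20 at 19 DIV. Calls in either direction, 9 of 20 on each day, were fewer than the 58.6% and 60.6% over all rows. Set, Npm1 and Atrx had the most reads. Set and Npm1, which carry histones or keep them soluble, and Atrx, a remodeller that places H3.3, were each within 2-fold of control on both days.

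Cell type markers also differed between these libraries. Dividing cell markers, all 5 of them read, summed to 774 CPM in ES and 543 CPM in control at 11 DIV, and 607 CPM in ES and 640 CPM in control at 19 DIV, ratios of 1.43 (spread-adjusted interval 0.708 to 2.95) and 0.949 (0.482 to 1.88). Sensory neuron markers summed to 4857 CPM in ES and 3114 CPM in control at 11 DIV, and 1439 CPM in ES and 4478 CPM in control at 19 DIV. Schwann cell and satellite glia markers summed to 7081 CPM in ES and 4114 CPM in control at 11 DIV, and 9086 CPM in ES and 11107 CPM in control at 19 DIV, and fibroblast markers to 6444 and 4746 CPM in ES and control at 11 DIV, and 12429 and 9045 CPM in ES and control at 19 DIV. Macrophage markers, with Aif1 at 0, summed to 66.0 and 74.7 CPM in ES and control at 11 DIV, and 115 and 25.2 CPM in ES and control at 19 DIV. Endothelial markers, with Pecam1 at 0, summed to 48.3 and 23.8 CPM in ES and control at 11 DIV, and 8.01 and 0 CPM in ES and control at 19 DIV. The part of these cell types in the histone values was not tested.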

How the data were processed

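The authors deposited, for each library, a table of unnormalized counts for 23282 gene symbols, made with Bowtie2, bedtools and the mouse build mm10, per the submitters' processing notes. A Quant-Seq kit turned 500 ng of total RNA into each library, per the labels' protocols, and the kit is taken as the labels name it. The sources used here give no versions, strand use or handling of duplicate and multiply mapped reads. Totals were 5782834 to 7830950 reads.

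Counts were scaled by TMM (edgeR 4.0.16, R 4.3.3). Ratios of 2 libraries carry Clopper-Pearson intervals, which cover counting error only. The spread factor is the median squared difference between 2 libraries relative to counting error over rows with a mean of 500 to 3000 reads. The 4-library fit used filterByExpr, with DESeq2 1.42.0 and limma 3.58.1 as alternatives. The size rule and the fit were also run on simulated data, and no result here rests on those runs. Other steps used Python 3.11.15, scipy 1.17.1, numpy 2.4.6, matplotlib 3.10.9 and pandas 2.3.3. Gene models were GENCODE M21 (84 of 84 members matched 1 gene). Named were variant rows with a read, replication-dependent rows with a mean of at least 100 reads or past the spread-adjusted rule, and per list the 3 genes with the most reads. Rows read mainly in 1 library, and Slbp, Ncbp1, Cpsf3 and Lsm11, were named after their values were seen. Members and lists were chosen with earlier results of these data known. Alternatives were other scalings, read and fold minimums, merged near copies, left-out leading rows, other prior counts and other tools.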

Additional observations from a re-analysis of the deposited data

How the results depend on the processing

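No paired analysis was possible because each group has 1 library and the labels give no replicate numbers, and leaving out a library would leave the 4-library fit without residual degrees of freedom. Of the alternatives, 36 of 52 for class sums, 30 of 32 for medians, 36 of 56 for counts by the size rule and 7 of 8 for the additive fit gave the same verdict.

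Counts of replication-dependent rows called in ES against control at 11 DIV were 6, or 13 with no read minimum. At 19 DIV they were 19, or 7 with at least 200 reads and 11 at 3-fold. For 19 against 11 DIV they were 10 in control, or 4 with at least 200 reads and 6 at 3-fold, and 7 in ES, or 11 with no minimum and 2 with at least 200 reads. Counts of variant rows were 0 in ES against control at 11 DIV, or 1 with DESeq2 size factors, with total count scaling and with no minimum, and 2 at 19 DIV, or 4 with no minimum. In control at 19 against 11 DIV they were 2, or 1 with total count scaling and 1 at 3-fold. The spread-adjusted rule gave 0 in each of these.

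Class sums as log2 ratios no longer excluded equality with spread-adjusted intervals. For replication-dependent rows this held for 0.72 and 0.63 (ES against control at 11 and 19 DIV) and -0.069 (ES, 19 against 11 DIV). For variant rows it held for -0.19, 0.31, -0.58 (control, 19 against 11 DIV) and -0.087 (ES, 19 against 11 DIV). Without H3f3b the variant sum at 11 DIV turned to 0.071. For 19 against 11 DIV in control the replication-dependent sum of 0.023 became 0.15 with total counts, which shift that comparison by 0.13 for every row, 0.057 with near copies merged, 0.24 without Hist1h2ap and -0.061 with rows of at least 500 mean reads. In ES the sum of -0.069 became 0.19 without Hist1h2ap, and the variant sum of -0.087 became 0.038 with rows of at least 500 mean reads. Over rows with under 50% shared 50-base words, an alternative chosen after seeing the data, the replication-dependent sums for ES against control were 2.14 at 11 DIV and 1.11 at 19 DIV, and for 19 against 11 DIV 1.59 in control and 0.56 in ES. Medians of replication-dependent rows moved with a mean minimum of 500 reads, to 0.14 (main 1.24) in ES against control at 19 DIV and to -0.54 (main 0.54) in ES at 19 against 11 DIV. DESeq2 called 1 member for day, where edgeR called 0. The cause of these changes was not tested, apart from the smaller number of rows or the shift that an alternative itself brings.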
